A study of Mus musculus with 6 samples.

Results

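Interleukins and their receptors were examined in mouse lung 14 days after bleomycin, a DNA-damaging drug whose delivery into the airways is widely used to produce lung fibrosis. The genes were taken by name, as every gene whose platform symbol is Il followed by a digit, and 66 of 12393 measured genes met that rule. They comprised 31 ligands, 31 receptor chains, 3 inhibitors or binding proteins (Il1rn, Il18bp and Il1f5) and the enzyme gene Il4i1, which carries the symbol only because interleukin-4 induces it. Each gene was read by the brightest of its probe sets, and 19 of the 66 had more than 1. The chains Il2rg and Il1rl1 are not analysed here.

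One Affymetrix MOE430A array was run for each of 6 animals, 3 given saline (arrays A, B and C) and 3 given bleomycin at 1 mg/kg in 50 µl of saline (arrays D, E and F). Every mouse was, by its label, a wild-type C57BL/6J male of 8 to 10 weeks, and all lungs were taken on day 14. RNA came from powdered lung without trachea and large airways, so each value averages over all its cells. Oropharyngeal delivery is given in the design text and intratracheal delivery in the labels of the arrays, so the route is not settled here.

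Array medians lay between 7.37 and 7.41 log2 units, and arrays of the same group correlated at 0.986 to 0.995 across probe sets, with 0.965 to 0.985 between groups. The epithelial genes Sftpc and Scgb1a1 stood between 13.98 and 14.42 on all 6 arrays, as befits the labelled tissue. The array labelled saline B went against its label for sex, with Xist at 11.40 against at most 7.88 elsewhere and Eif2s3y at 4.05 against at least 7.23. Cell type markers are counted as rising or falling at an adjusted p under 0.05 in limma, which 3.70% and 1.90% of all genes reached. Among the 9 macrophage markers measured, 6 rose and 0 fell, and their mean level was 9.31 to 9.61 on the saline arrays and 10.91 to 11.16 on the bleomycin arrays. None of the markers measured for T and natural killer cells (10), mast cells and basophils (8), neutrophils (7) or eosinophils (4) passed the test. Of 5 B and plasma cell markers 1 rose, and of 7 fibroblast markers 2 rose and 2 fell. Of 8 epithelial markers 1 fell, as did 1 of 6 endothelial markers. Without saline A, none of the markers that fell passed, and 1 of 7 fibroblast markers rose. Because bulk tissue was measured, a change in the number of cells of one type and a change in RNA per cell cannot be told apart.

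Interleukins are secreted signals that act between immune cells and the epithelium, endothelium and fibroblasts around them. Most bind receptors of paired chains that signal through Jak kinases and Stat transcription factors, whereas the interleukin-1 and interleukin-17 families signal through adaptor proteins to NF-kB. The pathways are held in check by receptor antagonists, soluble binding proteins and decoy receptors that bind without signalling. In lung fibrosis, IL-1, IL-6, IL-13, IL-17 and IL-33 have been studied as drivers of inflammation and scarring, and IL-4 and IL-13 as inducers of alternatively activated macrophages.

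No interleukin, receptor chain or inhibitor passed the test for a difference between bleomycin and saline. In limma with Benjamini-Hochberg adjustment over all probe sets, 0 of 66 genes were higher and 0 lower at an adjusted p under 0.05, against 3.70% and 1.90% of all genes, 5.60% in either direction. The calls over all genes, 458 higher and 236 lower, lay between 163 and 385 higher and between 22 and 165 lower with 1 array left out. They were 163 and 22 without saline A, 306 and 98 without B, 266 and 93 without C, 299 and 87 without bleomycin D, 385 and 165 without E and 211 and 62 without F. The fits without saline B and without bleomycin E each called 1 of the 66 higher (Il7r and Il1r2), and the others called 0. At an unadjusted p under 0.05, 9 of the 66 had higher and 3 lower values after bleomycin, against 11.7% and 11.0% of all genes. The bleomycin arrays lay wholly above the saline arrays for 7 of the 66 and wholly below for 5, against 13.3% and 14.6% of all genes. These shares are near or under those of all genes. By the brightest probe set, 0 of the 66 differed by 2-fold or more between the group means, against 272 of all 12393 genes. The median difference was -0.01 log2 units for ligands and -0.03 for receptor chains, and -0.04 for all genes. The smallest adjusted p was 0.0823, for Il18bp.

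**Figure D1:**
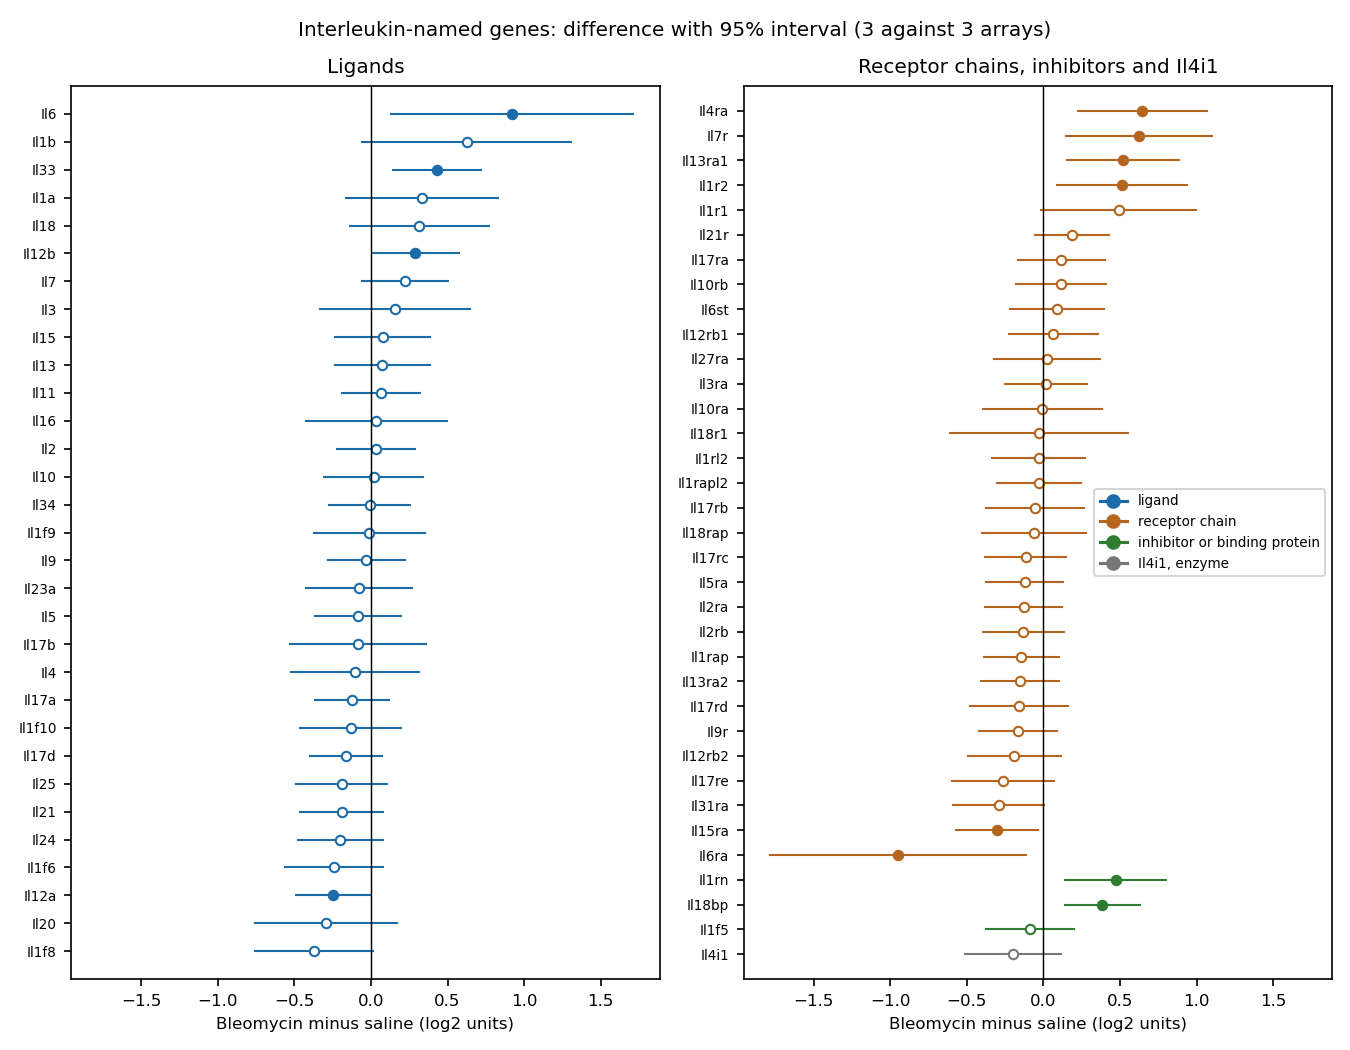
Difference between bleomycin and saline in log2 units for each of the 66 genes (31 ligands on the left, the others on the right), with bars for the 95% interval of the moderated fit over 3 against 3 arrays. Filled points mark the 12 genes with an unadjusted p under 0.05, none of which passed after adjustment; most intervals cross 0.

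The size of change that these arrays could still hide differed between genes. For 61 of the 66 genes the 95% interval of the difference lay within 1 log2 unit (2-fold) either way, and for 40 it lay within 0.5. The other 5 were Il6, Il1b, Il4ra, Il7r and Il6ra, whose intervals reached past 2-fold. Many of these genes were read by dim probe sets, where a difference in RNA can appear smaller than it is. By mean value over the 6 arrays, 50 of the 66 lay below the median of all genes (7.87), and 25 of these below its 25th percentile (6.43). Only 6 lay in the brightest 3099 genes, above 9.16. The brightness of a probe set depends on its probes as well as on the amount of RNA, so it gives no order between genes. Detection calls are not used here, so a dim gene cannot be told from an absent one. Of all genes below that median, 3.31% passed the test, against 0 of the 50 in this family. Above it the share was 7.89%, against 0 of 16.

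**Figure D2:**
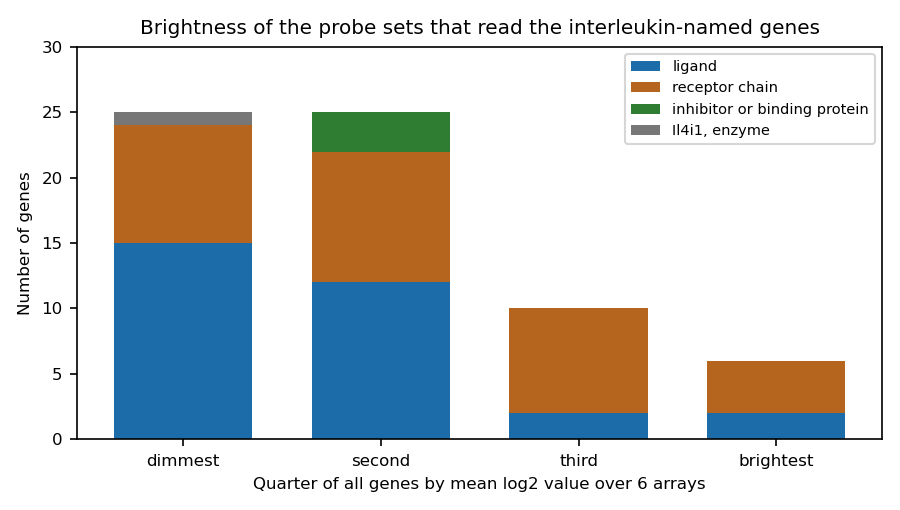
Number of interleukin-named genes in each of 4 equal bins of all genes, ordered by mean log2 value over the 6 arrays, with colours for ligands, receptor chains, inhibitors and Il4i1. The 2 dimmer bins hold 25 genes each, the third 10 and the brightest 6.

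Among the ligands, Il6 showed the largest difference. Il6 encodes a cytokine of the acute-phase response, and its values were 4.63, 5.02 and 4.85 in saline lungs and 6.68, 5.15 and 5.43 after bleomycin. All 3 bleomycin lungs were above the saline lungs, and lung D stood far above E and F. The difference was 0.92 ± 0.35 log2 units (SE, n = 3 each, limma adjusted p = 0.172), and 0.46 without D. In brightness Il6 lies below the 25th percentile of all genes. Il33, an alarmin held in the nucleus of epithelial and other tissue cells and released on damage, read 9.74, 9.82 and 9.66 in saline and 10.14, 10.38 and 10.00 after bleomycin. Its groups did not overlap and were close within themselves, with a difference of 0.43 ± 0.13 (SE, n = 3 each, limma adjusted p = 0.0927).

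Il1b, which encodes the main secreted interleukin-1 of macrophages, read 8.17, 8.32 and 8.67 in saline lungs and 9.67, 8.33 and 9.04 after bleomycin. Lung E lay within the saline range, so the groups overlapped. The difference was 0.62 ± 0.30 (SE, n = 3 each, limma adjusted p = 0.277), with a 95% interval from -0.06 to 1.31, and it was 0.30 without lung D. Il1a, a form of interleukin-1 kept inside cells, differed by 0.33 ± 0.22 (SE), and Il18, which like Il1b is activated by inflammasome cleavage, by 0.32 ± 0.20 (SE), with adjusted p of 0.421 and 0.404 in limma. Both had overlapping groups, and without saline A the differences were 0.15 and 0.13. Il1f8, which encodes interleukin-36 beta, differed by -0.37 ± 0.17 (SE, limma adjusted p = 0.253).

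The pair of chains that form interleukin-12 pointed in opposite directions, and neither passed the test. Il12a read 5.46, 5.63 and 5.56 in saline and 5.38, 5.23 and 5.29 after bleomycin. Its bleomycin lungs were all lower, but by only -0.25 ± 0.11 log2 units (SE, n = 3 each, limma adjusted p = 0.217). Il12b, whose chain is shared with interleukin-23, read 5.25, 5.50 and 5.24 in saline and 5.67, 5.72 and 5.46 after bleomycin, and its groups overlapped at saline B and bleomycin F. The difference was 0.29 ± 0.13 (SE, n = 3 each, limma adjusted p = 0.228) by the brighter of its probe sets and 0.02 by the other. Both genes lie below the 25th percentile of all genes in brightness.

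The ligands of type 2 and type 17 responses had small measured differences, read by dim probe sets. Il13, which drives mucus production and alternative macrophage activation, differed by 0.07 ± 0.14 (SE, 95% interval -0.23 to 0.38). Its close relative Il4 differed by -0.11 ± 0.18 (SE), and Il5, the growth factor of eosinophils, by -0.08 ± 0.12 (SE). Il17a, made by T cells and innate lymphocytes, differed by -0.12 ± 0.11 (SE, 95% interval -0.36 to 0.12), and all 4 ligands of the interleukin-17 family measured here (Il17a, Il17b, Il17d and Il25) had differences between -0.19 and -0.09. Il10, an anti-inflammatory cytokine, differed by 0.02 ± 0.14 (SE), Il11 by 0.07 ± 0.11 (SE), Il15 by 0.08 ± 0.14 (SE), Il16 by 0.03 ± 0.20 (SE) and Il34, a ligand of the macrophage colony-stimulating factor receptor, by -0.01 ± 0.12 (SE). The limma adjusted p of the genes in this group lay between 0.411 (Il17d) and 0.972 (Il34). Of this group only Il16 lay above the median of all genes in brightness. Il4, Il5, Il13, Il17d, Il25, Il10 and Il11 lay in the dimmest of 4 equal bins of all genes. On dim probe sets a difference in RNA can appear smaller than it is, so these small differences do not show unchanged RNA. Over the 27 ligands with an unadjusted p of 0.05 or more, differences ran from -0.37 to 0.62.

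Both chains of the type II receptor for IL-4 and IL-13 had higher values in every bleomycin lung, without passing the test by their brightest probe sets. Il4ra, the interleukin-4 binding chain, read 7.79, 8.13 and 7.75 in saline and 8.91, 8.25 and 8.44 after bleomycin. Lung D was the highest and lung E lay just above saline B. The difference was 0.65 ± 0.18 log2 units (1.56-fold, SE, n = 3 each, limma adjusted p = 0.087), and 0.46 without D. Another Il4ra probe set gave 0.64 and the third 0.03. Il13ra1, the partner chain, read 8.52, 8.59 and 8.52 in saline and 9.43, 8.91 and 8.84 after bleomycin, and its saline lungs were almost identical. Its difference was 0.52 ± 0.16 (1.43-fold, SE, n = 3 each, limma adjusted p = 0.108), and 0.33 without D.

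Il13ra1 was also read by 4 further probe sets. One of them passed, with 7.01, 7.18 and 7.18 in saline and 7.65, 7.67 and 7.65 after bleomycin. Its difference was 0.53 ± 0.10 (SE, n = 3 each, limma adjusted p = 0.0277), but it did not pass in any fit with 1 array left out, where the adjusted p ran from 0.0576 without saline B to 0.0951 without bleomycin F. The others gave 0.53, 0.42 and -0.05. Il13ra2, the decoy receptor that binds interleukin-13 without signalling, read 5.49, 5.58 and 5.51 in saline and 5.24, 5.52 and 5.36 after bleomycin. That is a difference of -0.15 ± 0.11 (SE, n = 3 each, limma adjusted p = 0.467), with overlapping groups. In all, 2 of the 93 probe sets of these genes passed, both upward, against 4.74% of all 22626 probe sets.

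Il7r, the interleukin-7 receptor of T cells and innate lymphocytes, read 8.04, 8.87 and 8.38 in saline lungs and 9.14, 9.22 and 8.82 after bleomycin. The groups overlapped only through saline B, the array whose sex-linked genes go against its label. The difference was 0.63 ± 0.21 (SE, n = 3 each, limma adjusted p = 0.132), and without saline B it was 0.85 and passed (limma adjusted p = 0.0465). Without saline A, the lowest array, it was 0.43 (limma adjusted p = 0.239), and it passed in no other fit with 1 array left out. The other Il7r probe set gave 0.64, with groups that did not overlap, and a limma adjusted p of 0.0625. That p was 0.0167 without saline B and 0.145 without saline A. The 10 T and natural killer cell markers measured had a mean level of 6.79 to 7.42 on saline and 6.94 to 7.28 on bleomycin arrays, and their median difference was -0.09; their part in the values of Il7r was not tested.

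Within the interleukin-1 receptors, Il1r2, a decoy that captures interleukin-1, read 6.18, 6.45 and 6.46 in saline and 7.09, 6.45 and 7.09 after bleomycin. Lungs D and F were above all saline lungs, and lung E was within their range. The difference was 0.51 ± 0.19 (SE, n = 3 each, limma adjusted p = 0.159), and without lung E it was 0.73 and passed (limma adjusted p = 0.036). With any other array left out it ran from 0.41 (without lung D or F) to 0.56 (without saline B or C). In none of those fits did it pass (limma adjusted p of 0.21 to 0.367). The signalling receptor Il1r1 differed by 0.49 ± 0.22 (SE, limma adjusted p = 0.246), with saline B the lowest at 7.91, and by 0.24 without that array. The accessory chain Il1rap differed by -0.14 ± 0.11 (SE) and the interleukin-18 receptor chain Il18r1, which varied from 9.78 to 10.89 among saline lungs, by -0.03 ± 0.25 (SE).

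Il6ra, the ligand-binding chain of the interleukin-6 receptor, had the largest difference of any member in absolute size, and it rested heavily on 1 lung. Its values were 8.84, 8.22 and 8.70 in saline and 6.70, 8.30 and 7.92 after bleomycin. Lung D was lowest by more than 1 log2 unit, and lung E lay above saline B. The difference was -0.95 ± 0.37 (SE, n = 3 each, limma adjusted p = 0.183), and -0.48 without D. The other probe set of the gene, with its own probes, gave -0.16, with groups that did not overlap (limma adjusted p = 0.397). Il6st, which encodes the signal-transducing chain shared by the whole interleukin-6 family, read 10.35 to 10.73 in saline and 10.58 to 10.82 after bleomycin. It differed by 0.09 ± 0.13 (SE, limma adjusted p = 0.739). Its dimmer probe sets gave 0.35, with groups that did not overlap (limma adjusted p = 0.139), and 0.50, with overlapping groups.

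Il15ra, which presents interleukin-15 to neighbouring cells, read 8.14, 7.91 and 8.04 in saline and 7.78, 7.82 and 7.58 after bleomycin. All bleomycin lungs were lower, by -0.30 ± 0.12 on average (SE, n = 3 each, limma adjusted p = 0.183), while its other probe set gave -0.04. Groups also failed to overlap for Il21r (0.19), Il2ra (-0.13), Il9r (-0.17) and the ligand Il17d (-0.16), each with an adjusted p of 0.346 or more. Among the other receptor chains, Il10rb differed by 0.11 ± 0.13 (SE), Il17re by -0.26 ± 0.15 (SE) and Il17ra by 0.12 ± 0.12 (SE). The ligand-binding chain Il10ra differed by -0.01 ± 0.17 (SE) by its brightest probe set. Its dimmer probe sets gave 0.37, with groups that did not overlap (limma adjusted p = 0.211), and -0.10. Over the 25 receptor chains with an unadjusted p of 0.05 or more, differences ran from -0.29 to 0.49.

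Both main inhibitors had higher values in every bleomycin lung by their brightest probe sets. Il18bp, the soluble protein that neutralises interleukin-18, read 7.36, 7.52 and 7.38 in saline and 7.72, 7.90 and 7.78 after bleomycin. The groups were narrow and did not overlap, with a difference of 0.38 ± 0.11 (1.31-fold, SE, n = 3 each, limma adjusted p = 0.0823). Il1rn, the receptor antagonist that blocks interleukin-1, read 7.04, 7.50 and 7.51 in saline and 7.80, 7.79 and 7.88 after bleomycin. The bleomycin lungs were again all higher, by 0.47 ± 0.14 (1.39-fold, SE, n = 3 each, limma adjusted p = 0.105). This difference was 0.32 without saline A, the lowest array, and 0.55 without saline B or C. Il1f5, the antagonist of the interleukin-36 receptor, differed by -0.09 ± 0.13 (SE), and the enzyme gene Il4i1, which is no inhibitor, by -0.20 ± 0.14 (SE).

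The dimmest of 3 Il1rn probe sets did pass. It read 5.97, 6.22 and 6.03 in saline and 7.64, 7.03 and 6.61 after bleomycin, with lung D the highest. Its difference was 1.02 ± 0.23 (2.03-fold, SE, n = 3 each, limma adjusted p = 0.0453), against 0.47 and 0.31 for the brighter sets. The groups overlapped in the set that gave 0.31, where bleomycin E lay below saline B and C. In the fits with 1 array left out the dimmest set passed only without bleomycin F (adjusted p = 0.0269), and the other fits gave 0.0527 without D to 0.125 without saline A.

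**Figure D3:**
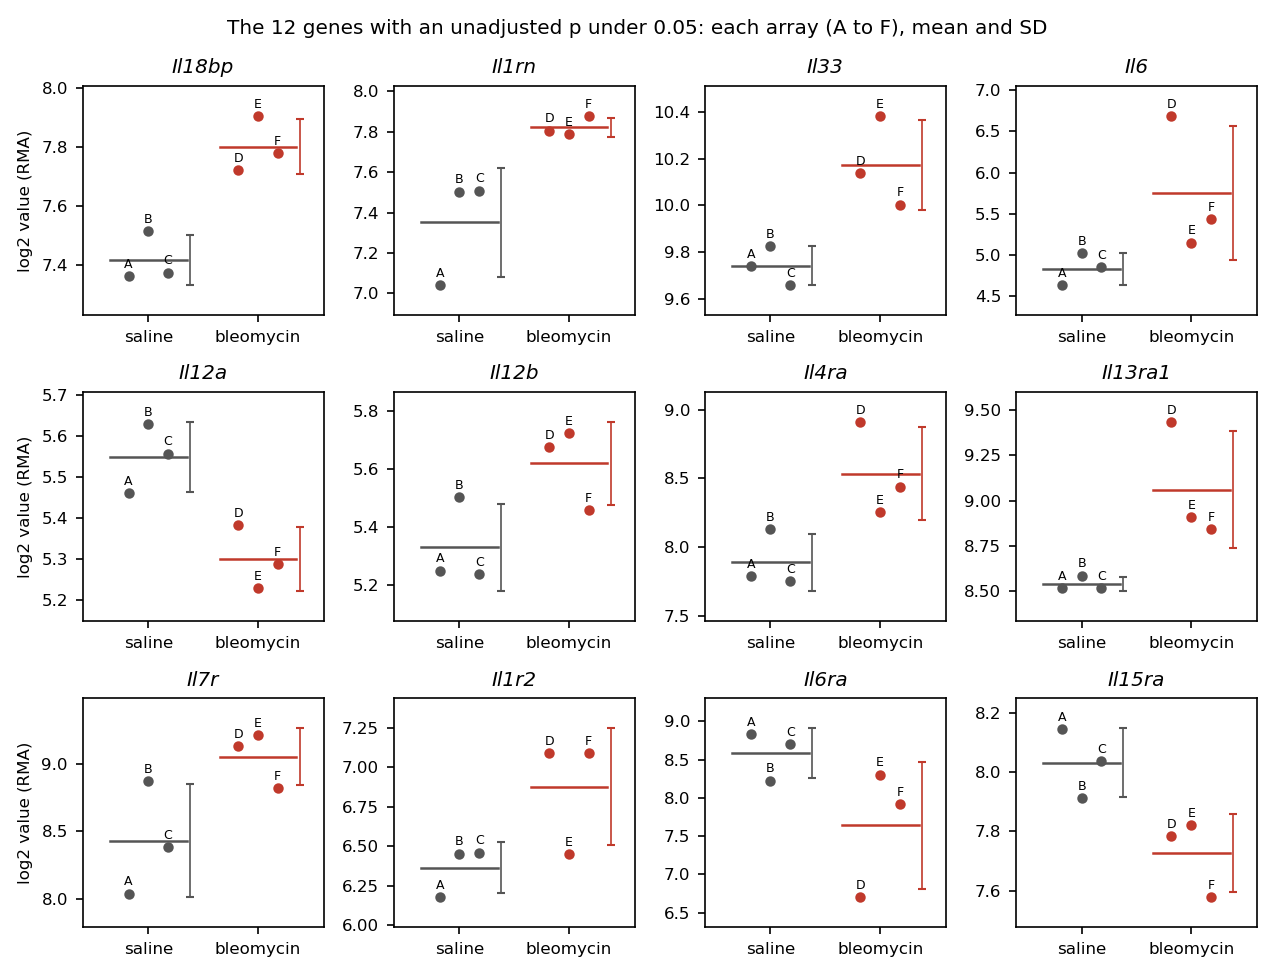
Log2 values on each array for the 12 genes with an unadjusted p under 0.05, saline in grey and bleomycin in red, with letters for the arrays, a line for the group mean and a bar for the SD (n = 3). The inhibitors Il18bp and Il1rn separate narrowly, whereas Il6 and Il6ra owe much of their difference to lung D.

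Members of the family that act on the same ligand or form one receptor were set against each other on each array, for 7 pairs. This shows whether the genes of a pair changed unequally, not which is more abundant. The log ratio of Il13ra2 to Il13ra1 changed by -0.67 log2 units, from -3.02 ± 0.01 to -3.69 ± 0.43 (SD, n = 3 each), without overlap between groups, and by -0.42 without lung D. That of Il6ra to Il6st changed by -1.04, from -1.99 ± 0.12 to -3.03 ± 0.79 (SD, n = 3 each), again without overlap, and by -0.61 without lung D. Each of these had an exact two-sided permutation p of 0.1, the smallest that 3 arrays against 3 can give, and 0.35 after Benjamini-Hochberg adjustment over the 7 pairs.

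The antagonist Il1rn did not separate from its ligands. Its log ratio to Il1b changed by -0.15 and that to Il1a by 0.14, with an exact permutation p of 0.7 for each. The log ratio of the decoy Il1r2 to the signalling receptor Il1r1 changed by 0.02 (exact permutation p = 1). Saline B stood apart at -1.45, against -2.31 and -2.34 in the other saline lungs and -1.97, -2.19 and -1.87 after bleomycin. Without it the change was 0.31 and the groups did not overlap. The log ratio of Il18bp to Il18 changed by 0.07 (exact permutation p = 0.6) and that of Il10ra to Il10rb by -0.12 (exact permutation p = 0.8). With all 6 arrays the groups overlapped in these 5 pairs, and each change had the opposite sign in at least 1 fit with an array left out.

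**Figure D4:**
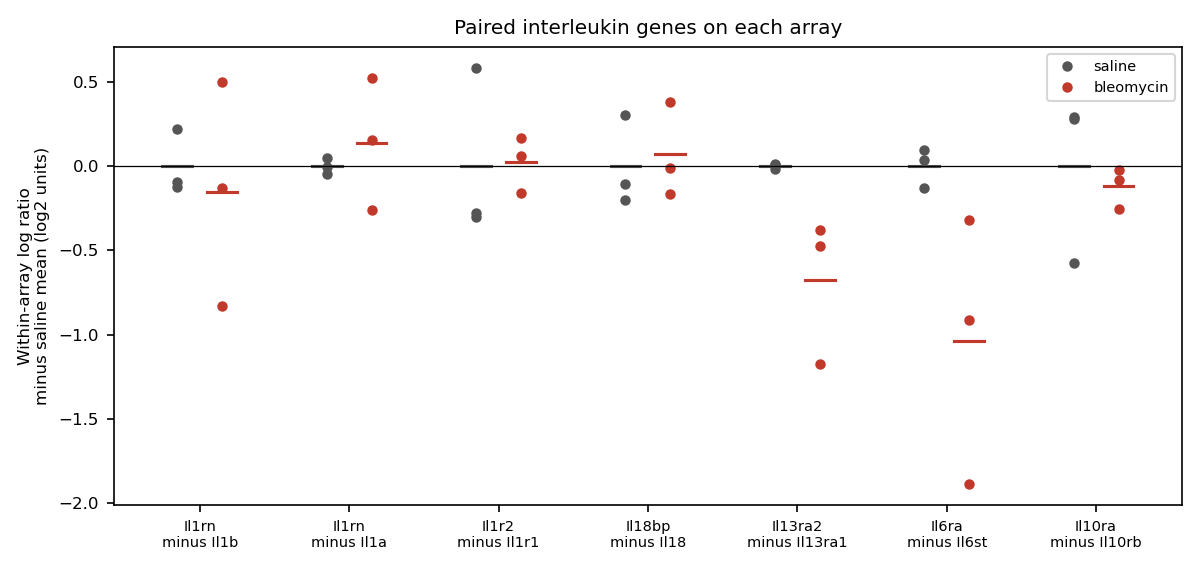
Log ratio of 2 genes on each array, in log2 units relative to the saline mean of that pair, for 7 pairs, with saline in grey, bleomycin in red and short lines for the group means (n = 3 each). Only Il13ra2 against Il13ra1 and Il6ra against Il6st have bleomycin points wholly apart from saline.

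Genes of the same pathways that carry other names were described by 8 lists, 112 genes in all. Of these 112, 19 rose and 1 fell, against 3.70% and 1.90% of all genes. Without saline A 6 of the 112 rose, and without saline C 12. Of 15 cytokines and receptors that share chains with interleukins, 4 rose and 1 fell. Csf2rb2, the mouse-specific beta chain for interleukin-3, rose 4.06-fold from 7.07 ± 0.32 to 9.09 ± 0.40 (SD, n = 3 each, limma adjusted p = 0.00297). Csf2rb, the beta chain shared by interleukin-3, interleukin-5 and granulocyte-macrophage colony-stimulating factor, rose 3.85-fold (limma adjusted p = 0.0104, and 0.0528 without saline A). Csf2ra, the alpha chain for the last of these, rose 2.16-fold. By contrast the alpha chains Il3ra and Il5ra differed by 0.02 and -0.12. Ebi3, a subunit of interleukin-27, rose 1.44-fold and Lifr, the receptor of leukaemia inhibitory factor, fell by 0.63 log2 units. These genes were named after their values were seen; Ebi3 passed only without bleomycin E, and Lifr only without saline C, among fits with 1 array left out (adjusted p of up to 0.151 and 0.0882).

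Several textbook response genes of these cytokines rose. Of 15 genes that respond to interleukin-6, 6 rose and 0 fell, against 3.70% and 1.90% of all genes. The median difference of the 15 was 0.43. Without saline A 3 rose, since Timp1 (adjusted p = 0.0513), Socs3 (0.068) and Bcl3 (0.0734) no longer passed. Bcl3 was also lost without bleomycin D (0.0547) or F (0.0732), and is named here after its values were seen. Saa3, an acute-phase protein, rose 6.83-fold, the metalloprotease inhibitor Timp1 5.04-fold (limma adjusted p = 0.00586) and the siderophore-binding protein Lcn2 3.67-fold. Of 17 genes that respond to IL-4 and IL-13, 4 rose and 0 fell. They were Arg1 (10.5-fold), the chemokine Ccl17 (3.21-fold), Retnla (2.58-fold) and the mannose receptor gene Mrc1 (2.01-fold, named after its values were seen). Without saline A, Arg1, Retnla and Mrc1 no longer passed (adjusted p of 0.0858, 0.124 and 0.0863), nor without saline C (0.063, 0.118 and 0.0735), and Retnla was also lost without bleomycin D (0.0983) or F (0.116). Mrc1 is also among the macrophage markers. Of 16 genes that respond to IL-1 and IL-17, Lcn2 and Mmp3 rose and 0 fell. Mmp3 rose 2.91-fold, a call lost on leaving out saline A (adjusted p = 0.0612). Such genes respond to other signals too, and the part of the mean macrophage marker level in these counts was not tested.

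Among intracellular signalling genes, 1 of 26 Jak, Stat and Socs genes rose and 0 fell, against 3.70% and 1.90% of all genes. It was Socs3, an inhibitor induced by interleukin-6 that acts at its receptor, which rose 3.18-fold from 9.32 ± 0.44 to 10.99 ± 0.42 (SD, n = 3 each, limma adjusted p = 0.0122, and 0.068 without saline A). Of 18 adaptors and NF-kB genes, Relb and Nfkb2, which act in the non-canonical NF-kB pathway, rose by 0.72 and 0.52 log2 units. Relb passed in the fits with 1 array left out only without bleomycin E, and Nfkb2 in none (adjusted p of up to 0.112 and 0.126). Of 7 genes that process IL-1 and IL-18, 2 rose: Pycard, the inflammasome adaptor, 2.0-fold (limma adjusted p = 0.00921, and 0.0554 without saline A), and Naip2, a sensor of bacterial proteins, 1.97-fold. With 1 array left out Naip2 passed only without saline B. Of 6 interleukin-17 adaptors 0 rose and 0 fell in limma at either an adjusted or an unadjusted p under 0.05, and the largest difference was that of Traf5 (0.27).

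**Figure D5:**
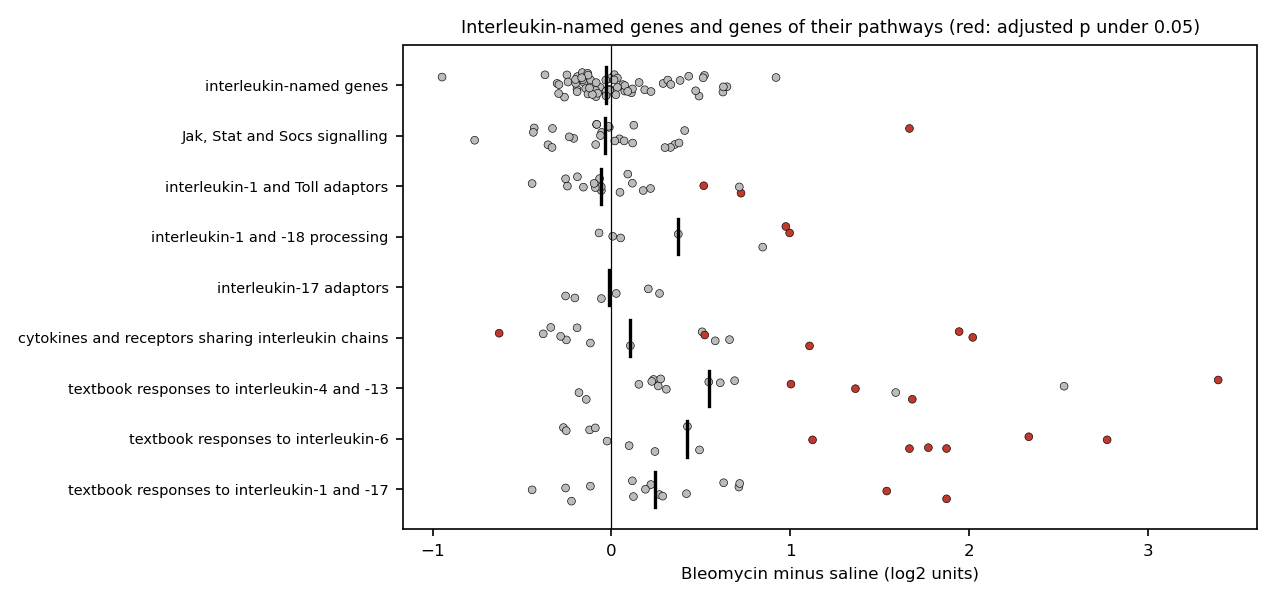
Difference between bleomycin and saline in log2 units for the 66 interleukin-named genes and for the genes of 8 pathway lists, 1 point per gene (vertical scatter has no meaning), red where the adjusted p was under 0.05, with a black line at each median. The interleukin-named genes hold no red point, and the interleukin-6 response list holds 6 of 15 (3 without saline A). Of all genes, 5.60% were called.

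Promoters are shown for Il1r2, Il1rn, Il33 and Il7r because these genes belong to the 9 with higher values at an unadjusted p under 0.05 and their windows hold letters of the kind that Stat proteins bind. The sequences are the 250 bases before an annotated start from RefSeq (GRCm38.p6), and 51 of the 66 genes had at least 1 of the 64 such windows. TTCNNNGAA, and a longer motif with 1 more N between TTC and GAA, were searched, and each reads the same on both strands. The first was in 7.02% and the second in 5.85% of 32851 windows of that length, and in 7 and 13 of the 64 windows here. Some windows of a gene overlap and share a match, so counted by gene these were 7 and 10 of 51. A share by gene over all genes was not computed. The counts by gene therefore cannot be set against the percentages of windows. No window of Il6, Il12b, Il4ra, Il13ra1 or Il18bp, which also belong to the 9, held a match. Windows of members outside the 9 did hold matches, among them those of Il12a, Il20, Il31ra and Il18r1. A match is a description of letters and not a binding site. Capitals mark the match.

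Each window is written 5′ to 3′ on the strand of its gene.
Il1r2, chr1:40085843-40086092, plus strand: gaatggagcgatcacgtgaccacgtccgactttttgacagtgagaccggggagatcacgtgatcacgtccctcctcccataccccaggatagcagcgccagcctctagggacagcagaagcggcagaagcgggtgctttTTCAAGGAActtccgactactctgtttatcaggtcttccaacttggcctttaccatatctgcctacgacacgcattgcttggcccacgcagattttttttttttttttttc
Il1rn, chr2:24345041-24345290, plus strand: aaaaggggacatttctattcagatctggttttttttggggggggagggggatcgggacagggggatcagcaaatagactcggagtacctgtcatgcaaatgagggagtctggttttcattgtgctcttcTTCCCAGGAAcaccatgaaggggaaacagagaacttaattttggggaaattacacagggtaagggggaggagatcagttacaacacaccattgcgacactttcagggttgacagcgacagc
Il33, chr19:29924863-29925112, plus strand: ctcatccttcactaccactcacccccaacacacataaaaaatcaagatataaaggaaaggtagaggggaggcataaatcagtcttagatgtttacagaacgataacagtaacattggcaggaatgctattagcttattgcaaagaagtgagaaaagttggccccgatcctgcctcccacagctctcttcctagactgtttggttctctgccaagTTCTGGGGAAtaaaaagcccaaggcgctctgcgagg
Il7r, chr15:9529877-9530126, minus strand: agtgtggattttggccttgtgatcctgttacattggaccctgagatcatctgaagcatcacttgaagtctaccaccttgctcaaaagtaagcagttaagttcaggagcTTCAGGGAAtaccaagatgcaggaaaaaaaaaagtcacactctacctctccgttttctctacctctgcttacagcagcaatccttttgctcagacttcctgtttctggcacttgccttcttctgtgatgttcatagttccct

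The match began 111 bases before the start of Il1r2, 121 before that of Il1rn, 36 before that of Il33 and 142 before that of Il7r. In Il1r2 and Il7r it was TTCNNNGAA, and in Il1rn and Il33 the longer. Il1rn and Il33 each had a further window without a match, at another annotated start. The probe sets do not tell which start was used.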

How the data were processed

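The deposited values are log2 expression per probe set. Per the submitters' processing notes and the design text, the authors applied RMA with quantile normalization. The version of RMA was not given in the sources used here. That the base is 2 follows from their maximum, 14.42, since the natural log of a 16-bit scanner value ends at 11.1. Without 64 controls, 22626 of 22690 probe sets were tested. GEO's platform annotation gives 20380 of these 1 gene symbol, 691 several and 1555 none. Another 2 probe sets that list an interleukin among several symbols were not used.

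The fit was limma 3.58.1 under R 4.3.3 (lmFit, eBayes, no covariates) on 3 bleomycin and 3 saline arrays. Benjamini-Hochberg adjustment ran over all 22626 probe sets, with a threshold of 0.05. Differences are bleomycin minus saline with the moderated standard error, and folds are back-transformed from them. Within-array log ratios were compared by exact two-sided permutation over 20 assignments. The fit was tested on simulated data. Arrays A to F are separate mice, so the limma p-values set the difference between groups against a spread between mice. For each probe set that spread was moderated towards a value drawn from all probe sets. No letter occurs in both groups.

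The members, lists and pairs were chosen with earlier results of these data known. Named genes were every called member, per role the 6 largest differences and the 4 brightest, the pairs, a set of well-known interleukins and up to 3 called genes of each pathway list. Of the listed genes, 19 are not analysed here. Alternatives were a low-value filter, a trended robust prior, array weights, repeated quantile normalization, ribosomal centring, the mean of a gene's probe sets, adjustment over 1 probe set per gene, a threshold of 0.01 and leaving out each array. Plots used matplotlib 3.10.9.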

Additional observations from a re-analysis of the deposited data

How the results depend on the processing

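The count of 0 interleukin-named genes called, higher or lower, held under the trended robust prior and repeated quantile normalization. The same count was found with centring on ribosomal protein genes and with adjustment over 1 probe set per gene. It was also 0 under the filter on dim probe sets, but the members that the filter removed could not be called there. At a threshold of 0.01 the count had to be 0, since none passed at 0.05. Array weights gave 1 higher (Il18bp, adjusted p = 0.0499), and the mean of a gene's probe sets gave 1 receptor chain higher (Il13ra1, adjusted p = 0.0488). Counting a gene where any of its probe sets passed, an alternative chosen after seeing the data, gave 2 higher, 1 receptor chain and 1 inhibitor. With 1 array left out between 0 and 1 were higher, always a receptor chain (Il7r without saline B, Il1r2 without bleomycin E). Of the 16 members with an unadjusted p under 0.05 or with groups that do not overlap, none changed direction under any alternative run.

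Pathway genes higher fell from 19 to 8 at the threshold of 0.01 and lay between 6 and 18 with 1 array left out, 6 of them without saline A and 12 without saline C. Pathway genes lower were 2 with the filter, repeated quantile normalization or ribosomal centring, 0 with the mean of probe sets or the threshold of 0.01, and 0 to 1 with 1 array left out. Cell type markers lower were 4, then 0 at the threshold of 0.01, and 0 to 2 with 1 array left out.

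Centring on ribosomal protein genes moved the median of all probe sets from -0.04 to -0.16 log2 units. It put the median difference at -0.14 for ligands, -0.16 for receptor chains and -0.16 for all members. With 1 array left out these ran from -0.15 to 0.022, from -0.13 to -0.020 and from -0.13 to 0.0014, lowest in each case without saline A. The within-array log ratios moved by less than the larger group SD of their pair under every alternative run for them. Some moved by more than the smaller group SD, as did that of Il13ra2 to Il13ra1 without lung D. The 5 smallest changed sign in some fits with 1 array left out. A filter on dim probe sets removed some members, which then gave no value. The 3 arrays per group and the dimness of most of these probe sets limit what can be seen.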

Other observations

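Saline A had the lowest value of the 3 saline arrays for 50 of the 66 interleukin-named genes (75.8%), against 40.9% of all genes. Among genes below the median in brightness it was the lowest for 43 of 50 members (86.0%) and for 58.1% of all genes. Repeating the quantile normalization changed values by up to 0.14 log2 units and left the count of called members at 0.

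Of the 9 members with higher values at an unadjusted p under 0.05, 3 were highest on lung D, 4 on lung E and 2 on lung F. Of the 458 genes called higher in the whole table, 298 were highest on D, 79 on E and 81 on F. The difference between these shares was not tested.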
